A study of Mus musculus with 11 samples.

Results

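Protocadherins are cell-surface proteins of the cadherin superfamily. The genes were taken by symbol: every gene whose mouse symbol begins with Pcdh, after the RefSeq accession of each array probe had been mapped to a symbol. This gave 47 genes of the 20964 named on the array, and 35 of them were clustered genes (7 Pcdha, 22 Pcdhb and 6 Pcdhg) and 12 were non-clustered. Another 23 of the 70 Pcdh genes in the RefSeq table had no probe by accession and were not analysed here.

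RNA came from mouse embryonic stem (ES) cells, measured on 11 Agilent one-colour arrays. Before collection the cells spent 3 or more passages in 2i/LIF (5 arrays), KOSR/LIF (3 arrays) or serum/LIF (3 arrays), so leukaemia inhibitory factor (LIF), which supports ES cell self-renewal, was in every medium. The 2i medium adds inhibitors of the kinases MEK and GSK3, and KOSR is a serum replacement. The cells were unsorted and came from 3 ES cell lines, namely HVJu5.1, HVJu9.3 and E14, all of 129/Ola background, so the 5 arrays of 2i/LIF do not stand for 5 lines and their p-values treat clone mates as independent. The comparisons asked how each protocadherin differed between media.

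The clustered genes lie in 3 neighbouring arrays of variable first exons. For most of their promoters, though not those of the C-type genes, each neuron is known to use a small, partly random choice. This gives it a surface identity used in self-recognition, and the choice is tied to promoter methylation and to the looping factor CTCF. Pcdha and Pcdhg transcripts join a variable exon to constant exons shared by their cluster, while Pcdhb transcripts are single exons. The non-clustered genes are regulated singly and act in adhesion and cell sorting in the embryo, where Pcdh8 is known from paraxial mesoderm and Pcdh19 from the nervous system.

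The promoters of 3 genes, Pcdh18, Pcdh8 and Pcdh19, are shown because each of these genes passed the test in 2 comparisons, which share the 2i/LIF arrays. Each line is the 250 bases before the RefSeq start in the gene's own direction (build GRCm38.p6). Pcdh18 spans chr3:49757317-49757566, Pcdh8 chr14:79771313-79771562 and Pcdh19 chrX:133688994-133689243, all on the minus strand. Capitals mark the CCAAT, TATA and GC boxes found on either strand.
Pcdh18: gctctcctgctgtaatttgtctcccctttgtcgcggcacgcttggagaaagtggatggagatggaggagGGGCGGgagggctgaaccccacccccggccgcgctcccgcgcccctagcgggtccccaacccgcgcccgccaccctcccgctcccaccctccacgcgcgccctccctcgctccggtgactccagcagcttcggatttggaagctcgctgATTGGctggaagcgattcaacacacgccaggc
Pcdh8: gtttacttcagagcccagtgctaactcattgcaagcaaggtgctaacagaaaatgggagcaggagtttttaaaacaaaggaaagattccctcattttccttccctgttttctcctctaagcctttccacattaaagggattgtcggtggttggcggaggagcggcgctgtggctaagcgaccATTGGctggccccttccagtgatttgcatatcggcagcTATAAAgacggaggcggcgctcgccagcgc
Pcdh19: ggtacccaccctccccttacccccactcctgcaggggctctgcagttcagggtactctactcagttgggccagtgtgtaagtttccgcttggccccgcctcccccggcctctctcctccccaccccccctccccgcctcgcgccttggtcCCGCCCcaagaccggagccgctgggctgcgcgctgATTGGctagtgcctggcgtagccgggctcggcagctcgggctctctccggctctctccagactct

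All 3 windows held 1 CCAAT box, on the other strand and so read as ATTGG, whose first base lay 32 bases before the start in Pcdh18, 68 in Pcdh8 and 65 in Pcdh19. A TATAAA box stood 30 bases before the start of Pcdh8, and a GGGCGG box 181 bases before that of Pcdh18 and 100 before that of Pcdh19. Windows were present for 9 Pcdh genes, none of them clustered, with 2 overlapping windows for Pcdh9 whose starts lay 10 bases apart and which shared 1 CCAAT box. Counted by gene, 8 of the 9 held CCAAT on either strand, against 33.8% of all 32851 windows. TATAAA was in 2 of the 9 genes (12.4% of all windows), GGGCGG in 4 (32.7%), CTTTGA, the core of TCF/LEF sites, in 1 (13.8%), and CCGGAA, an ETS core, in 0 (12.0%). Motifs were searched on both strands, and no 2 of the matches printed in capitals overlap. The matches describe letters and not binding. The windows of Pcdh18 and Pcdh19 were rich in CpG, with 23 and 16 CpG and 68.0% and 69.2% G+C, while that of Pcdh8 had 11 CpG and 51.2% G+C. The median over all windows was 6 CpG and 52.4% G+C.

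Replicate numbers in the deposited files did not always name the same array, and this bears on every value of KOSR/LIF replicate 3. The authors also deposited a table of processed values, and 6 of its 11 columns correlated best, across probes, with the scanner file of the same sample. The 2i/LIF replicate 1 column matched the scanner file of replicate 4 (r = 0.993, own file 0.963), and the replicate 4 column matched the file of replicate 1 (r = 0.991, own file 0.969). The KOSR/LIF replicate 1 and 2 columns were exchanged in the same way (r = 0.995 and 0.994, own files 0.978 and 0.979). The KOSR/LIF replicate 3 column matched no scanner file closely: its own gave r = 0.917 and its best, that of KOSR/LIF replicate 1, gave 0.974. All exchanged pairs lay within a medium, so the comparisons between media keep their groups, but for KOSR/LIF replicate 3 the 2 sources hold different measurements and which one belongs to the label is not known here. Its scanner array was also dim: 58.2% of named genes were well above background on it, against 66.7% to 80.6% on the other 10 arrays. Results that involve KOSR/LIF are therefore also given without it.

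**Figure D1:**
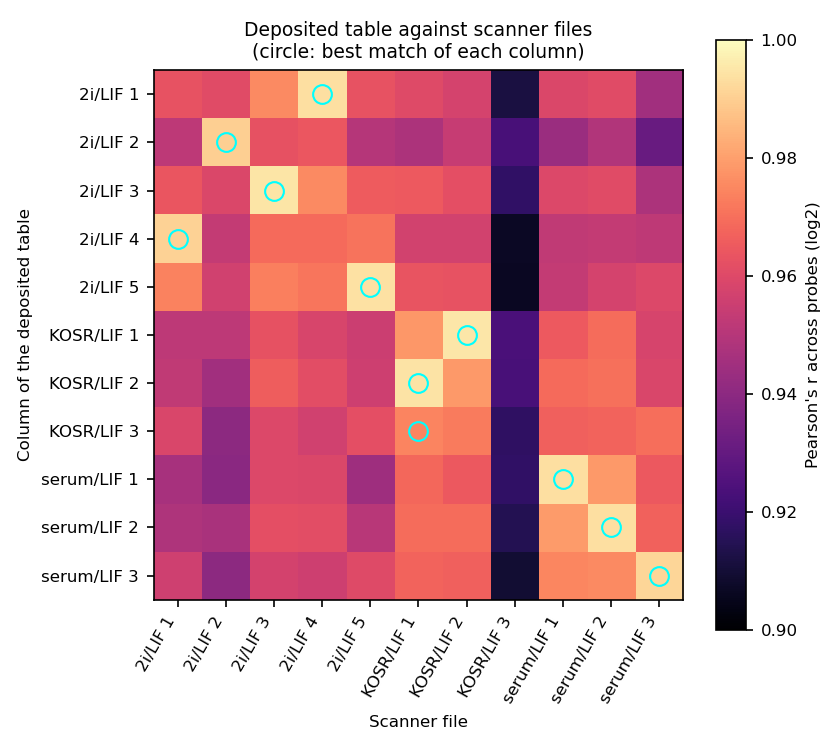
Pearson's r across probes between each column of the authors' deposited table (down) and each scanner file (across), with a circle at the best match of each column. The circles leave the diagonal at 2i/LIF replicates 1 and 4 and at the 3 KOSR/LIF columns, and the scanner file of KOSR/LIF replicate 3 is the dark column.

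Levels are log2 processed intensities relative to each array's 75th percentile, so 0 is the intensity that 1 probe in 4 of the array exceeded and levels of different genes are not on 1 scale. Agilent's software marks each probe as well above background or not. The weakest level so marked lay between -6.47 and -2.50 on the 11 arrays, with KOSR/LIF replicate 3 at -2.50, so a gene can be marked on one array and missed on another at the same level.

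Many clustered protocadherins were detected on few or no arrays. Of the 35 clustered genes, 16 were well above background on no array (2 Pcdha, 13 Pcdhb and 1 Pcdhg), 4 on 1 array and 5 on 2 arrays, while each of the 12 non-clustered genes was on at least 1. Only Pcdhga9, Pcdhb12 and Pcdh1 were well above background on all 11 arrays, Pcdha8, Pcdh9 and Pcdh19 on every array but KOSR/LIF replicate 3, and Pcdhga1 on every array but 2i/LIF replicate 2. By medium, 6 genes were marked on every 2i/LIF array, 4 on every KOSR/LIF array and 8 on every serum/LIF array. The KOSR/LIF count rests on its dim replicate 3: 10 genes were marked on both other KOSR/LIF arrays. A mark on every array is easier to reach with fewer arrays, so these counts do not rank the media.

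The number of clustered genes detected differed between arrays. It was highest on serum/LIF replicate 3 (16 of 35) and 2i/LIF replicate 5 (14 of 35), the arrays with the largest shares of named genes above background (80.6% and 80.4%). It was lowest, at 3, on KOSR/LIF replicate 3, which had the smallest share (58.2%). The other 8 arrays had 4 to 9, without following the order of their shares (6 at 66.7% and 4 at 72.1%). Serum/LIF replicate 3 and 2i/LIF replicate 5 were scanned on day 3, as was 2i/LIF replicate 1 (5 of 35, at 72.3%), and no KOSR/LIF array was. The part of array sensitivity or scan day in these counts was not tested. Non-clustered genes detected numbered 3 or 4 of 12 on each 2i/LIF array, 6, 8 and 2 on KOSR/LIF replicates 1 to 3, and 6, 6 and 8 on serum/LIF replicates 1 to 3.

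**Figure D2:**
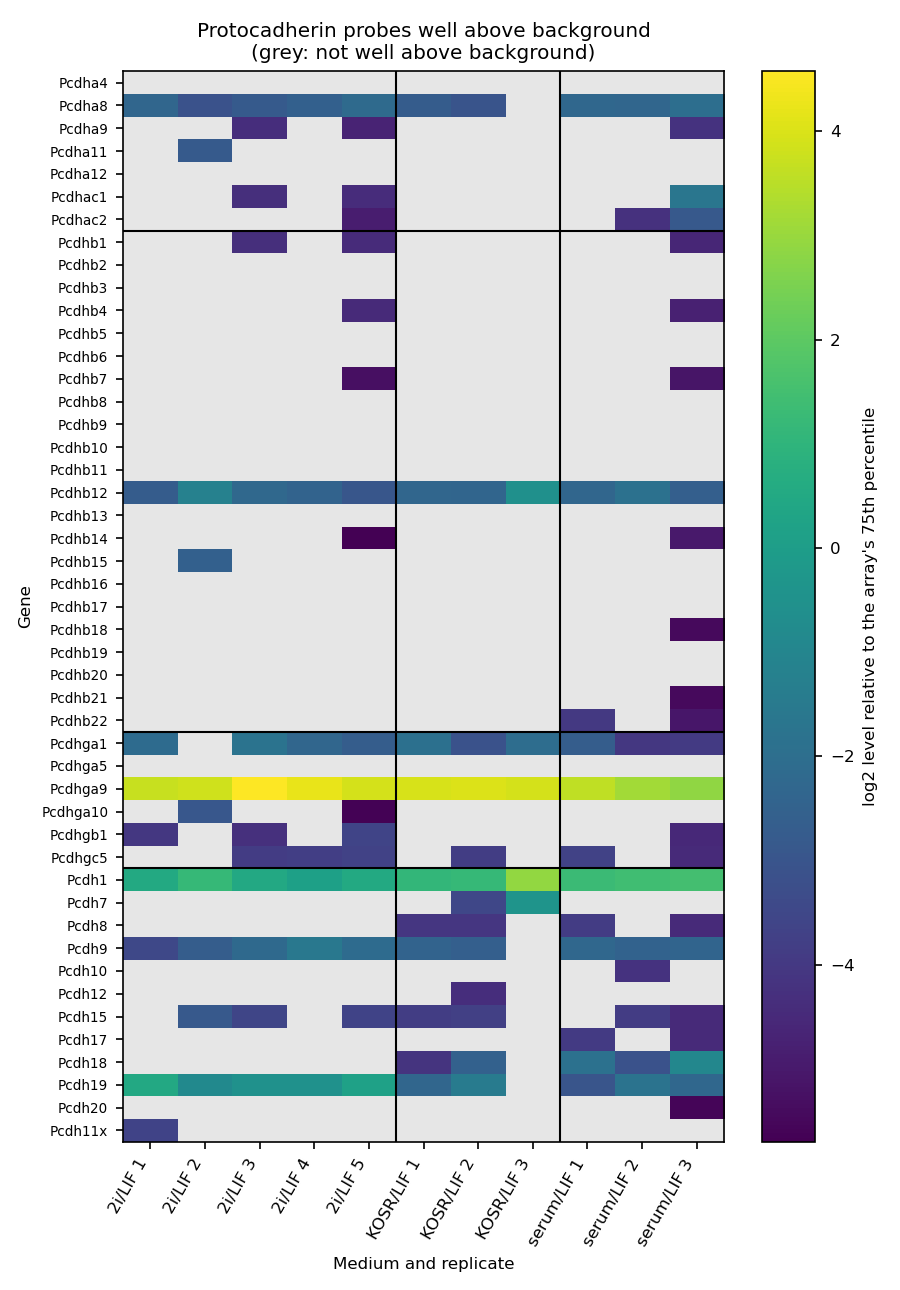
Each row is a protocadherin gene and each column an array, coloured by log2 level where the probe was well above background and grey where it was not; black lines part the Pcdha, Pcdhb, Pcdhg and non-clustered genes and the media. Most rows of the Pcdhb block are grey on all arrays, and Pcdh18 and Pcdh8 are grey on all 5 arrays of 2i/LIF.

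A few genes stood out on 1 array. On 2i/LIF replicate 2, Pcdha11 had a level of -2.79 and its highest level on any other array was -4.41. Pcdhb15 was marked on the same array alone, at -2.56, against at most -3.00 elsewhere. Pcdhac1, whose C-type exon sits at the end of the Pcdha cluster, reached -1.67 on serum/LIF replicate 3 and lay between -6.30 and -4.26 on the other 10 arrays. These 3 levels are single measurements with no replicate of their own. In the authors' deposited table the Pcdha11 value of that 2i/LIF column also stood highest, at 5.91 (log2), against at most 4.14 in the other columns. The other peaks were absent from the table: Pcdhb15 was 3.50 in the same 2i/LIF column, against up to 4.72 elsewhere, and Pcdhac1 was 4.03 in the serum/LIF replicate 3 column, against up to 4.95 elsewhere.

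A gene was tested if its probe was marked above background on 3 or more arrays: 16 of the 47 protocadherins (34.0%) and 16262 of all 20964 named genes (77.6%). The 16 were 10 of the 35 clustered and 6 of the 12 non-clustered genes, and no protocadherin passed through a single medium. Pcdh18 and Pcdh8, however, were marked on no 2i/LIF array and passed only through the media where they were high. Differences come from 1 linear model over all 11 arrays (limma) with p-values adjusted by Benjamini-Hochberg over all genes tested, two-sided, and a threshold of 0.05. Where a medium had no array with the gene marked, its fold is a lower bound, written "at least". The bound sets the brighter medium's mean level against the dimmer medium's mean after each dim value is raised to the weakest level marked above background on its array. Dim values in the brighter medium entered as read, so with any of them the fold is no strict bound.

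In 2i/LIF against serum/LIF, 5 protocadherins passed the test. Pcdh18, Pcdh8 and Pcdhac2 were lower in 2i/LIF, and Pcdh19 and Pcdhga9 were higher. The 5 of 16 stand beside a background of 16.7% of all genes tested, 6.75% higher and 9.96% lower. Over all 47 genes with no filter, 4 passed, 1 higher and 3 lower, against 11.2% of all named genes (4.28% higher, 6.89% lower). The median log2 change of the 16 genes was 0.03, as it was over all genes tested (0.03).

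Pcdh18, a non-clustered gene of the delta2 subfamily, had the largest change. Its levels were -7.05, -5.95, -6.69, -6.42 and -8.28 on the 2i/LIF arrays, none well above background, against -1.86, -3.13 and -0.93 on the serum/LIF arrays, all well above it. Every 2i/LIF array lay below every serum/LIF array. The gene was at least 7.66-fold lower in 2i/LIF (adjusted p = 0.000245, limma). Within scan days, by the same kind of bound, it was at least 5.11-fold lower on day 1 (2 arrays a medium) and at least 24.2-fold lower on day 3 (2 arrays against 1). These bounds hold for the main processing only. Over 26 alternatives the log2 change of Pcdh18 ran from -6.73 to -1.30, and the smallest is less than the 7.66-fold bound.

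Pcdh8, a delta2 protocadherin also called PAPC, was lower in the same direction. It had -6.73, -5.71, -6.72, -6.21 and -7.42 on the 2i/LIF arrays, none above background, and -3.88, -5.14 and -4.46 on the serum/LIF arrays, of which replicates 1 and 3 were. The groups did not overlap. With dim 2i/LIF values raised, the gene was 1.34-fold lower in 2i/LIF (adjusted p = 0.0026, limma, for the levels as read). Serum/LIF replicate 2 was itself dim, so this is no strict bound, and the serum/LIF levels were close to background. Within scan days the gene was 1.27-fold lower on day 1, with the same limit, and at least 2.09-fold lower on day 3. The call was lost with another background correction, normexp, where the difference was -0.34 (adjusted p = 0.803).

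Pcdh19, a delta2 protocadherin whose human gene is known from an X-linked epilepsy, went the other way. Its levels were 0.52, -0.83, -0.52, -0.52 and 0.16 in 2i/LIF, against -2.98, -1.80 and -2.26 in serum/LIF, all well above background. Every 2i/LIF array lay above every serum/LIF array. The mean was -0.24 ± 0.56 in 2i/LIF (SD, n = 5) and -2.35 ± 0.59 in serum/LIF (SD, n = 3). The log2 change of 2.11 ± 0.43 (SE), 4.33-fold, had adjusted p = 0.00471 in limma's test. It was 1.88 within scan day 1, where it missed the threshold (adjusted p = 0.0562), and 2.60 within day 3.

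**Figure D3:**
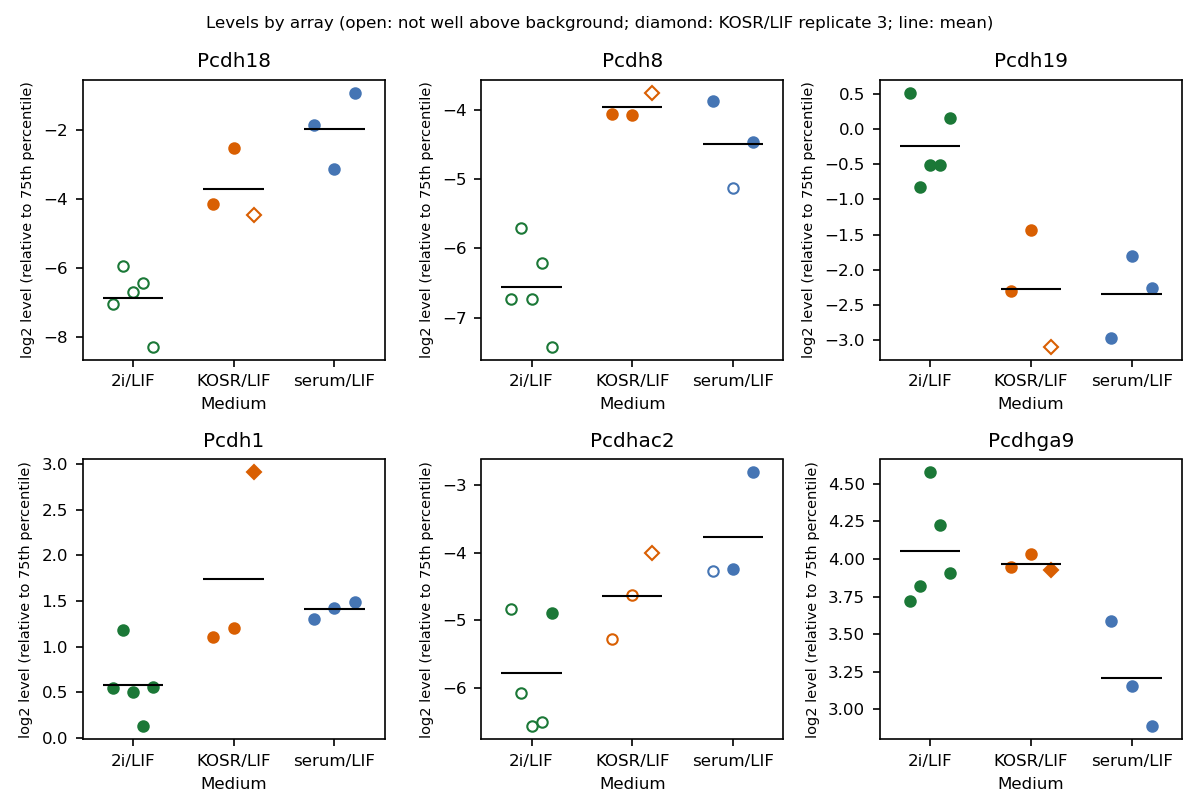
Log2 level of 6 protocadherins on each array, by medium, with filled points where the probe was well above background, open points where it was not, a line at the mean and a diamond for KOSR/LIF replicate 3. Pcdh18 and Pcdh8 lie lowest in 2i/LIF with open points throughout, and all 5 points of Pcdh19 in 2i/LIF lie above every point of the other media.

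Pcdhac2, a C-type Pcdha gene, was -4.83, -6.07, -6.57, -6.50 and -4.89 in 2i/LIF, where only replicate 5 was well above background, and -4.27, -4.24 and -2.81 in serum/LIF, where replicates 2 and 3 were. The groups did not overlap, and the log2 change was -2.00 ± 0.51 (SE, adjusted p = 0.0189, limma). With dim values raised to the weakest level marked on their array, the difference of means was -0.89. With the same step it was -0.62 on scan day 1, where no 2i/LIF array was above background, and -2.05 on day 3. In the deposited table the log2 change was -1.24 (adjusted p = 0.0696). Without serum/LIF replicate 3 the log2 change was -1.52 and was no longer called, and a second Pcdhac2 probe was well above background on 0 arrays.

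Pcdhga9, an A-type Pcdhg gene, was 3.72, 3.82, 4.58, 4.22 and 3.91 in 2i/LIF, against 3.59, 3.15 and 2.89 in serum/LIF. The groups did not overlap, and the lowest 2i/LIF array (3.72) lay just above the highest serum/LIF array (3.59). The log2 change was 0.84 ± 0.25 (SE, adjusted p = 0.0378, limma), and 1.03 and 0.93 within scan days 1 and 3. It kept its call in 12 of 27 alternative analyses, and it was not called with cell line as a block, by the titles (adjusted p = 0.0624) or by the source names (adjusted p = 0.0552). A second Pcdhga9 probe had a log2 change of 0.59 (adjusted p = 0.332 over all probes). The files used here do not say whether either probe lies in the variable exon or in the constant exons that all Pcdhg transcripts share, so the signal could come from other Pcdhg genes. The same limit holds for the Pcdha probes.

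Pcdh1, a non-clustered delta1 gene, missed the threshold but its arrays did not overlap. It had 0.55, 1.19, 0.50, 0.13 and 0.56 in 2i/LIF and 1.31, 1.43 and 1.49 in serum/LIF. The log2 change was -0.82 ± 0.39 (SE, adjusted p = 0.202, limma), and without KOSR/LIF replicate 3, where Pcdh1 stood at 2.91, the same change had an SE of 0.23 and adjusted p = 0.0286. It was also called with scan day as a block (-1.10, adjusted p = 0.00549), with slide as a block (-1.02, adjusted p = 0.0055), on scan day 1 alone (-1.05, adjusted p = 0.0261), with only the arrays of these media (adjusted p = 0.0467) and in the authors' deposited table (-0.77, adjusted p = 0.0222). Deviations from the medium means correlated at r from -0.19 to 0.25 between same-day arrays of different media, with 8 of 15 pairs over 0.1. For pairs of the same cell line, 6 of 13 were over 0.1 by the titles and 6 of 13 by the source names. With KOSR/LIF replicate 3 left out, 6 of the 16 genes were called, beside 19.7% of all genes. Groups of arrays that did not overlap occurred for 2 of the 16 genes upward and 4 downward, against 11.7% and 14% of all genes tested.

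The other 10 genes tested did not pass, with log2 changes from -0.41 (Pcdha8) to 1.00 (Pcdhga1). Pcdh9 and Pcdhb12, both well above background on every 2i/LIF and serum/LIF array, had log2 changes of -0.02 ± 0.35 and -0.06 ± 0.48 (SE). The 4 tested Pcdhg genes all had 2i/LIF means above those in serum/LIF, with 1 of them called, though 3 of the 4 did with quantile normalization and in the deposited table. Of the 22 Pcdhb genes 2 were tested and neither was called.

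Against KOSR/LIF, 2i/LIF cells differed in 3 of these genes in the same directions, and the 2 comparisons share their 2i/LIF arrays. Pcdh18 and Pcdh8 were lower in 2i/LIF and Pcdh19 was higher, while no clustered gene passed. The 3 of 16 stand beside 14.7% of all genes tested (5.96% higher, 8.7% lower). Without KOSR/LIF replicate 3 the same 3 genes were called, beside 12% of all genes, and so were they in the deposited table. With scan day as a block Pcdhac2 (-1.70, adjusted p = 0.00111) and Pcdh1 (-1.10, adjusted p = 0.00886) were called lower as well, and also with slide as a block. Pcdhac2 was below background in both media on the scan days they share. Arrays did not overlap for 1 gene upward and 2 downward, against 9.05% and 10.6% of all genes. The 2 downward were Pcdh18 and Pcdh8, both dim on KOSR/LIF replicate 3, where protocadherin probes marked on no array also read higher than in 2i/LIF.

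Pcdh18 levels in KOSR/LIF were -4.15, -2.52 and -4.46, replicate 3 not well above background. All 2i/LIF arrays lay below them. For replicate 3 this says little, because undetected probes also read higher on it. Pcdhb16, marked on no array, was -4.46 on it and -8.32 to -6.05 in 2i/LIF. With replicate 3 taken as read, Pcdh18 was 2.30-fold lower in 2i/LIF (adjusted p = 0.00498, limma), which is no strict bound. With KOSR/LIF replicate 3 left out it was at least 2.99-fold lower (adjusted p = 0.00901). Over 25 alternatives the log2 change ran from -4.03 to -1.02. The call was lost with quantile normalization (adjusted p = 0.0814) and with normexp (adjusted p = 0.0965), and within scan day 1 the bound was at least 2.86-fold lower. On day 2 neither of the 2 arrays was above background, so that day gives no value. In the authors' deposited table, on the log2 scale of that table, it stood at 2.06, 2.28, 2.59, 1.56 and 1.88 in 2i/LIF and at 6.28, 4.93 and 7.12 in KOSR/LIF. The KOSR/LIF replicate 3 value was thus the lowest of its medium in the scanner files and the highest in the table.

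Pcdh8 was -4.06, -4.08 and -3.75 in KOSR/LIF, replicate 3 not well above background. Every 2i/LIF array lay below, with the same limit for replicate 3. With replicate 3 taken as read, Pcdh8 was 1.93-fold lower in 2i/LIF (adjusted p = 0.000849, limma), which is no strict bound. It was at least 1.79-fold lower without KOSR/LIF replicate 3 (adjusted p = 0.00496). Within scan day 1 it was at least 1.72-fold lower, and day 2 gives no value because the gene was above background on neither array. The call was lost with normexp (adjusted p = 0.16). Pcdh19 was -2.31, -1.44 and -3.10 in KOSR/LIF, replicate 3 not well above background, and every 2i/LIF array lay above. The log2 change was 2.04 ± 0.43 (SE, adjusted p = 0.00722, limma), and 1.64 ± 0.43 without KOSR/LIF replicate 3 (adjusted p = 0.0338). It was 1.36 within scan day 1 (adjusted p = 0.133) and 1.51 with the slide as a block (adjusted p = 0.0785), and on day 2 (1 array a medium) the gene was at least 3.19-fold higher in 2i/LIF.

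In KOSR/LIF against serum/LIF no protocadherin passed limma's test, beside 4.56% of all genes tested. An unadjusted p below 0.05 was found for 3 of the 16, and for 3036 of all 16262 genes tested. The count of protocadherins that passed was also 0 without KOSR/LIF replicate 3 (3.85% of all genes) and in the deposited table. Pcdh18 had the largest log2 change, -1.74 ± 0.69 (SE, adjusted p = 0.201), which was -1.36 ± 0.77 with KOSR/LIF replicate 3 left out and -0.59 ± 0.53 in the deposited table. Pcdha8 had -2.72, -3.03 and -4.23 in KOSR/LIF and -2.25, -2.30 and -1.99 in serum/LIF, which do not overlap. Its log2 change was -1.15 ± 0.38 (SE, adjusted p = 0.124), and -0.70 without KOSR/LIF replicate 3. Pcdhga9 was 3.95, 4.03 and 3.93 in KOSR/LIF, above all serum/LIF arrays (log2 change 0.76 ± 0.28, adjusted p = 0.163). Groups did not overlap for 2 genes upward and 1 downward, against 12.4% and 16% of all genes.

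Pcdh7, a delta1 gene, was well above background on 2 KOSR/LIF arrays alone, at -3.51 on replicate 2 and -0.37 on replicate 3, and so was not tested. In the authors' deposited table its log2 values were 5.53, 2.38 and 2.09 in the KOSR/LIF columns 1 to 3, with column 1 the one that matched the scanner file of replicate 2. The bright value of KOSR/LIF replicate 3 was therefore absent from the table.

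**Figure D4:**
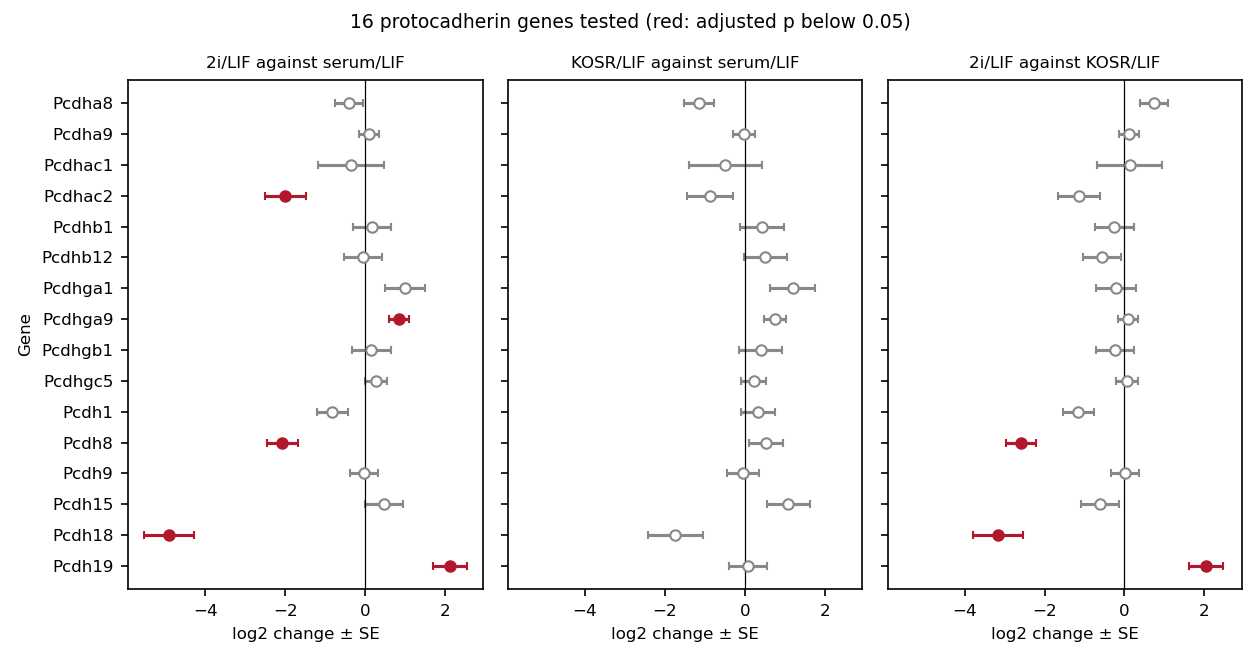
Log2 change with its standard error for the 16 tested protocadherins in each comparison, red where the adjusted p was below 0.05. Red points fall on 5 genes in 2i/LIF against serum/LIF, on 0 in KOSR/LIF against serum/LIF and on 3 in 2i/LIF against KOSR/LIF; where 2i/LIF signals were not above background (Pcdh18 and Pcdh8) the plotted change is the fitted value and the text gives the bound.

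The ES cell label was borne out by its markers: 8 of 8 (Pou5f1, Sox2, Nanog, Zfp42, Esrrb, Klf4, Tdgf1 and Sall4) were well above background on every array. Their summed level was 8.09 to 8.70 (log2) in 2i/LIF, 7.22 to 7.98 in KOSR/LIF (7.85 and 7.98 without replicate 3) and 8.42 to 8.73 in serum/LIF, so every KOSR/LIF array lay below all others. Of the 8, 3 were called higher in 2i/LIF against KOSR/LIF (Sox2, Nanog and Esrrb; Nanog alone without KOSR/LIF replicate 3), beside 14.7% of all genes tested. All 8 had lower means in KOSR/LIF than in serum/LIF, with Sox2 called. The one ES marker called in 2i/LIF against serum/LIF was Tdgf1, as lower. Among other cell types, the fibroblast, primitive endoderm, neural and endothelial lists all had only lower calls in 2i/LIF. Of 7 fibroblast genes tested, 4 were lower against serum/LIF (beside 16.7% of all genes) and 4 against KOSR/LIF (14.7%). Of 7 endoderm genes, 1 and 6 were lower. In KOSR/LIF against serum/LIF, 1 fibroblast and 1 endoderm gene were called higher, and 1 neural and 1 endothelial gene lower (beside 4.56%). Without KOSR/LIF replicate 3, 1 fibroblast and 4 endoderm genes were called higher, and 1 neural and 0 endothelial genes lower (3.85%). The summed level of 8 fibroblast markers was 0.82 to 1.12 (log2) in 2i/LIF, 2.81 to 3.57 in KOSR/LIF (3.14 and 3.57 without replicate 3) and 1.89 to 3.77 in serum/LIF. Of these markers, 3 (Postn, Dcn and Twist2) were above background on no 2i/LIF array, 2 (Postn and Lum) on no KOSR/LIF array and 0 on no serum/LIF array. The summed level of 7 primitive endoderm markers was -1.81 to -0.84 in 2i/LIF, 0.14 to 3.17 in KOSR/LIF (2.17 and 3.17 without replicate 3) and -0.80 to 0.43 in serum/LIF. Sox7 was the one endoderm marker above background on no 2i/LIF array. The summed neural level (10 genes) was 3.18 to 4.27 in 2i/LIF, 3.22 to 4.23 in KOSR/LIF and 3.80 to 3.83 in serum/LIF. Without KOSR/LIF replicate 3 the KOSR/LIF values were 3.22 and 3.35, below all serum/LIF arrays. Of 8 neural genes tested, 2i/LIF against serum/LIF gave 3 lower calls, Pax6 (log2 change -3.69), Map2 (-2.81) and Rbfox3 (-4.25). Against KOSR/LIF the 3 lower calls were Pax6 (-3.60), Rbfox3 (-2.53) and Sox1 (-1.42, not called without KOSR/LIF replicate 3). On every array of a medium, 4 neural genes were above background in 2i/LIF, 4 in KOSR/LIF and 7 in serum/LIF, and Dcx was above it on none of the 11 arrays. The summed endothelial level (6 genes) was 3.26 to 4.00 in 2i/LIF, 3.04 to 4.74 in KOSR/LIF (3.06 and 3.04 without replicate 3, below all 2i/LIF arrays) and 3.02 to 3.63 in serum/LIF. Of 4 endothelial genes tested, Tie1 was called lower in 2i/LIF in both comparisons, and was above background on no 2i/LIF array. The summed mesoderm levels (6 genes) overlapped between all media, and limma called 0 of 5 tested genes in any comparison, with 0 (2i/LIF against serum/LIF), 2 (KOSR/LIF against serum/LIF) and 1 (2i/LIF against KOSR/LIF) at an unadjusted p below 0.05. Over all 16262 genes tested, the counts at that level were 4391, 3036 and 4424. The part of other cell types in the Pcdh18 and Pcdh8 differences was not tested, and in bulk RNA fewer cells of a type and less RNA per cell cannot be told apart.

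Related gene lists put the protocadherins in context. Among classical and desmosomal cadherins, which bind catenins and hold cells together, 7 of 16 tested passed in 2i/LIF against serum/LIF, 1 higher and 6 lower, beside 16.7% of all genes tested (6.75% higher, 9.96% lower), with a median log2 change of -0.74. The largest were Dsc2, a desmosomal cadherin, at -4.72 ± 0.74 (SE, adjusted p = 0.000956), and Cdh9 at -3.29 ± 0.45 (adjusted p = 0.000402). Cdh10 was at least 3.25-fold lower in 2i/LIF (adjusted p = 0.00208). Among atypical large cadherins, which include the planar polarity proteins, 2 of 14 were higher and 2 lower. Dchs1 was at least 3.13-fold lower in 2i/LIF (adjusted p = 9.78e-05), Clstn2 changed by -1.85 ± 0.46 (SE, adjusted p = 0.0154) and Cdhr1 by 1.53 ± 0.44 (SE, adjusted p = 0.0307). Of 9 catenins 1 was higher, Ctnnd2, at 1.50 ± 0.37 (SE, adjusted p = 0.0154).

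The counts of the next 3 lists in this comparison, 1 of 11, 3 of 14 and 3 of 18, stand beside 16.7% of all genes tested. Of 11 genes of CTCF and cohesin, which bind the promoters and enhancers of the clustered genes, 1 passed: the cohesin subunit Stag2, at -1.11 ± 0.22 (SE, adjusted p = 0.00403). Of 14 genes of DNA methylation and silencing of the clustered genes, 1 was higher and 2 lower. Dnmt3l, a cofactor of the de novo methyltransferases, changed by -4.32 ± 0.63 (SE, adjusted p = 0.000634), and Dnmt3b, such an enzyme, by -1.88 ± 0.48 (SE, adjusted p = 0.0179). Uhrf1, which guides maintenance methylation, changed by 1.14 ± 0.20 (SE, adjusted p = 0.00227). Of 18 cytoplasmic partners and proteases, 1 was higher and 2 lower: Cyfip2, of the WAVE actin-regulating complex, at -2.52 ± 0.41 (SE, adjusted p = 0.00115), the kinase Fyn at -1.16 ± 0.35 (SE, adjusted p = 0.0395), and the gamma-secretase subunit Ncstn at 1.04 ± 0.30 (SE, adjusted p = 0.0307). The median log2 change was 0.15 for atypical cadherins, -0.04 for catenins, -0.07 for CTCF and cohesin, -0.01 for the methylation list and 0.09 for the partners, beside 0.03 over all genes tested.

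**Figure D5:**
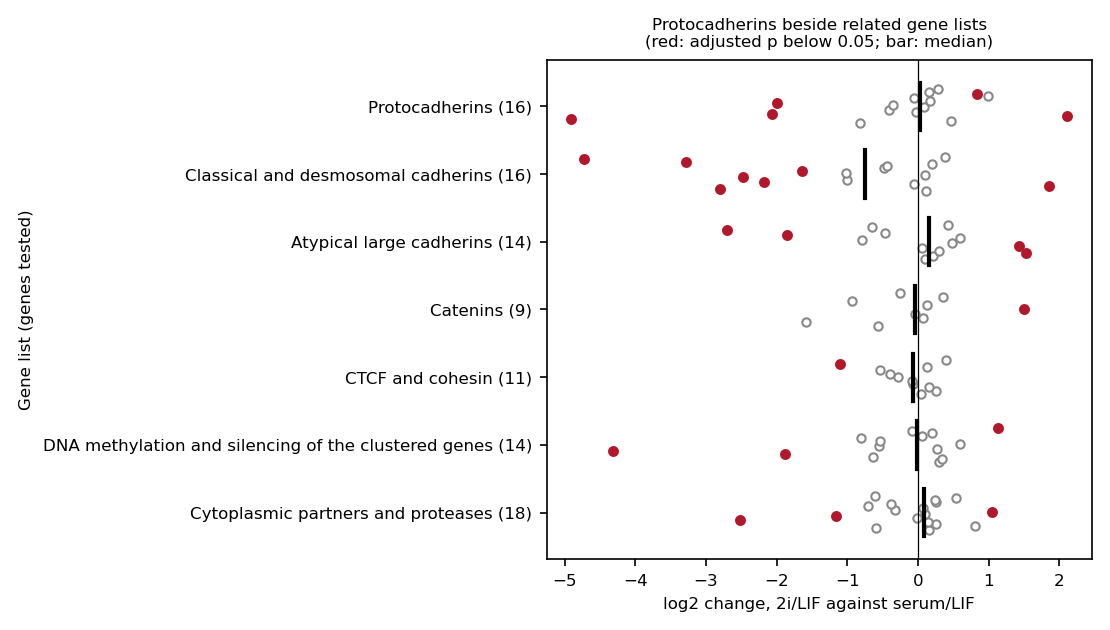
Log2 change in 2i/LIF against serum/LIF of the tested genes of each list, red where the adjusted p was below 0.05, with a black bar at the median. The protocadherins centre on 0.03 with calls on both sides, while the classical and desmosomal cadherins centre on -0.74.

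In 2i/LIF against KOSR/LIF, where 14.7% of all genes tested were called, 2 of 16 classical or desmosomal cadherins were higher and 4 lower, 1 of 14 atypical cadherins was higher and 2 lower, and 1 of 9 catenins was higher. CTCF and cohesin had 0 calls (1 of 11 with unadjusted p below 0.05, limma, beside 4424 of all 16262 genes). The methylation list of 14 had 1 higher and 2 lower, and the 18 partners had 2 higher and 1 lower. Without KOSR/LIF replicate 3, beside 12% of all genes, counts of higher and lower genes were 2 and 2 for classical or desmosomal cadherins, 1 and 1 for atypical ones, 1 and 0 for catenins, 0 and 0 for CTCF and cohesin, 0 and 2 for the methylation list and 0 and 1 for the partners. In KOSR/LIF against serum/LIF the calls of these lists were in the 16 classical and desmosomal cadherins alone, beside 4.56% of all genes tested, 1 higher (Cdh11, 1.46 ± 0.35, SE, adjusted p = 0.0375) and 2 lower. Cdh1, the E-cadherin of ES cells, was -1.79 ± 0.26 (SE, adjusted p = 0.00538), and Cdh13 was at least 5.49-fold lower in KOSR/LIF (adjusted p = 0.042). With KOSR/LIF replicate 3 left out (3.85% of all genes), Cdh1 (-1.65, adjusted p = 0.0114) and Cdh13 (adjusted p = 0.0359) kept their calls, Cdh9 passed as lower (adjusted p = 0.0159) with no KOSR/LIF array well above background, and Cdh11 lost its call (adjusted p = 0.0684). The other 5 lists had 0 calls in that comparison, with 5, 1, 3, 2 and 4 genes at unadjusted p below 0.05 (limma) for atypical cadherins, catenins, CTCF and cohesin, methylation and partners. Those lists had 14, 9, 11, 14 and 18 genes tested, and 3036 of all 16262 genes were below it.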

How the data were processed

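Agilent Feature Extraction 11.0.1.1 made the deposited intensities (per the file headers), background-subtracted and not scaled between arrays. The steps behind the authors' deposited table of processed intensities are not given in these sources; its values are linear, with column medians of 46.5 to 47.8, and its centring is unknown. RNA was extracted with Qiagen RNeasy and labelled with Cy3 (Agilent one-colour labelling protocol, version 6.6), per the labels' protocols.

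Control spots and spots with outlier flags were left out, and spots of a probe averaged. Of 55681 probes, 29109 had a RefSeq accession and 27642 were named through the RefSeq table of GRCm38.p6, giving 20964 genes. The probe with the highest mean level stood for a gene. The log2 intensity minus each array's 75th percentile was fitted with limma 3.58.1 (R 4.3.3), 3 media, 11 arrays, no covariates. A probe needed to be well above background on at least 3 arrays. The residual degrees of freedom were 8 and the prior ones 3.52, and the procedure was tested on simulated data. The number of arrays limits the precision.

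All 47 genes are accounted for, with full values for those that passed, and each related list is given by its counts with up to 3 called genes of the largest change. The members and lists were chosen with earlier results of these data known. Alternatives were normalization, background correction, filters, probe averaging, blocks for scan day, slide, replicate and cell line, and arrays left out. Normexp was planned on mean signals, and median signals were used because the files lack the former. Titles and source names give different cell lines for 4 of the 2i/LIF samples, so the line is no covariate. Promoter sequences are from RefSeq (GRCm38.p6), none from chromosome 18, and that table gave names only for the probes because the array design is on mm9.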

Additional observations from a re-analysis of the deposited data

Results flagged for a closer look

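Pcdhgc5, a C-type Pcdhg gene, had a level of -4.55 on 2i/LIF replicate 1, far from the other 4 arrays of that medium, which lay between -3.87 and -3.68. It was not well above background on that array. This was 1 of 16 genes looked at in this way, and chance singles out about 1 in 20 groups. No cause was tested.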

How the results depend on the processing

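None of the 8 called protocadherin differences reversed its direction under any alternative run, while 29 of the 40 that were not called did under at least 1. Among those, Pcdhac1 in 2i/LIF against serum/LIF was -0.36, and 0.65 in the deposited table, and Pcdh1 in KOSR/LIF against serum/LIF was 0.33, and -0.25 without KOSR/LIF replicate 3. In 2i/LIF against serum/LIF, Pcdh18 kept its call in 26 of 26 alternatives, Pcdh19 in 26 of 27, Pcdh8 in 25 of 26, Pcdhac2 in 21 of 26 and Pcdhga9 in 12 of 27. In 2i/LIF against KOSR/LIF, Pcdh18 kept it in 23 of 25, Pcdh19 in 23 of 26 and Pcdh8 in 24 of 25. These totals leave out alternatives in which a gene was not tested. Pcdh18, Pcdh8 and Pcdhac2, above background on 5, 4 and 3 arrays, were not tested under the stricter filter (6 arrays). Of protocadherins called in 2i/LIF against serum/LIF (5), 3 were called with normexp, 2 with the stricter filter (6 arrays), 3 with the mean of all probes and 3 to 6 with 1 array left out, the 3 without serum/LIF replicate 3 and the 6 without KOSR/LIF replicate 3. In 2i/LIF against KOSR/LIF (3), 1 was called with normexp, 1 with the stricter filter, 5 with scan day as a block (Pcdh1 and Pcdhac2 added) and 3 to 4 with 1 array left out. KOSR/LIF against serum/LIF stayed at 0 in every alternative run.

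Of all genes, 2718 were called in 2i/LIF against serum/LIF, against 1756 with normexp, 1131 on scan day 3 alone and 1861 to 3199 with 1 array left out. KOSR/LIF against serum/LIF gave 742, against 371 with normexp, 451 with no filter and 222 to 912 with 1 array left out. 2i/LIF against KOSR/LIF gave 2384, against 1514 with normexp and 1757 to 2588 with 1 array left out. Median scaling moved the median of all genes by -0.41 in KOSR/LIF against serum/LIF and 0.31 in 2i/LIF against KOSR/LIF. The cause of these changes was not tested.

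Same-numbered samples did not deviate together (r from -0.20 to 0.18, with 2 of 9 pairs over 0.1), and numbers differ between the table and the scanner files. With the replicate number as a block, 3 protocadherins were called in 2i/LIF against serum/LIF and 2 in 2i/LIF against KOSR/LIF, and 1406 of all genes in the second. The fits on a single scan day alone were chosen after seeing the data, while scan day as a block was planned. In normexp, median signals took the place of the planned mean signals. Signal close to background limits Pcdh18, Pcdh8, Pcdhac2 and the dim clustered genes.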

Other observations

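Several protocadherins had more than 1 probe, and the probes differed. Pcdh15, a stereocilia link protein of the inner ear, was represented by a probe well above background on 7 arrays, another was on 5, and its other probes were on at most 1. In 2i/LIF against serum/LIF the first gave a log2 change of 0.47 and the second -0.61, neither called. Pcdh7 had 3 probes, well above background on 2, 1 and 1 of the arrays.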
